A study of Mus musculus with 5 samples.

Results

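The genes of the proteasome were examined in 5 lines of NIH/3T3 cells, a mouse embryonic fibroblast line. The members were all gene symbols that begin with Psma, Psmb, Psmc, Psmd, Psme, Psmf or Psmg, without Psmb8, Psmb9 and Psmb10, whose products form the interferon-induced immunoproteasome. This gave 44 of the 14454 listed genes: 7 alpha and 7 beta subunits of the core, 17 subunits of the cap, 5 activators and inhibitors, 7 assembly factors, and Psmc3ip. Psmc3ip shares only the letters of its name, since its product acts in meiotic recombination, and it is kept apart.

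All 5 lines carried an integrated human histone H2A gene fused to EGFP. In 1 line (wt) the histone was wild type, and in 4 lines (3, 6, 15 and 18 by their labels) it had the substitution T120D, an aspartate in place of a threonine near the C-terminus. The cells were kept in DMEM with 10% fetal calf serum and 10 µg/ml gentamicin, so the wt line also carries the tagged transgene and no line without one enters the comparison. Total RNA was made into stranded mRNA libraries, 1 per line. Whether the lines are separate clones is not stated, and p-values therefore rest on the spread between the T120D samples, which may be technical. The wt sample is assumed to vary as they do. With 1 wt line, an exact permutation test cannot give a one-sided p below 0.2.

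The proteasome is the protease that degrades most ubiquitin-tagged proteins of the cytosol and nucleus. Its core particle (20S) is a barrel of stacked rings, in which the outer alpha subunits form the gate and the inner beta subunits carry the proteolytic sites. The cap (19S) sits on the barrel ends: its base unfolds substrates with a ring of ATPases, and its lid removes the ubiquitin chains. Dedicated chaperones help to assemble core and base, and other activators such as PA28 can take the place of the cap. When proteasome activity falls short, mammalian cells raise transcription of these genes together through the factor NRF1, encoded by Nfe2l1, which binds antioxidant response elements with small MAF proteins.

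Since the genes are known to be regulated as a set, the promoters of the members called higher, Psmb6 and Psmd2, are shown. Each sequence is the 250 bases before the annotated start, 5′ to 3′ on the strand of the gene, from RefSeq on GRCm38.p6, and capitals mark matches to the motifs searched. The Psmb6 window is chr11:70525107-70525356, plus strand, and the Psmd2 window is chr16:20651402-20651651, plus strand.
Psmb6 promoter: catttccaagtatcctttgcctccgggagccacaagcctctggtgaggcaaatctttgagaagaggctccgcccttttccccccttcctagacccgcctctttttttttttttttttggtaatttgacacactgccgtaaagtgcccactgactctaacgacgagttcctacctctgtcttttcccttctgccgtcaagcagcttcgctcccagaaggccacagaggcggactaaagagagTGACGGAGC
Psmd2 promoter: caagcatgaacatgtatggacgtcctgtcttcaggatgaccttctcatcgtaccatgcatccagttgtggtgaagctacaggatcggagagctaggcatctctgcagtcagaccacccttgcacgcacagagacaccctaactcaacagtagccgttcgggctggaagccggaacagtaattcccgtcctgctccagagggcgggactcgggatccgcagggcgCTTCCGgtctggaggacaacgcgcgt
In the Psmb6 window the capitals are TGACGGAGC, which ends at the base before the start and matches the core of the antioxidant response element, searched as TGACNNNGC on both strands. In Psmd2 they are the reverse complement of CGGAAG, a motif bound by ETS factors. RefSeq had windows for 37 of the 44 members. TGACNNNGC was in 5 of these (13.5%), namely those of Psmb5, Psmb6, Psmc6, Psmd9 and Psmd12, against 11.5% of the 27025 genes with a window and 14.1% of the tested ones. The longer TGACTCAGC was in 0 members and 0.4% of all genes. The motif CGGAAG was in 19 members (51.4%), against 15.3% of all genes and 31.7% of the tested ones, and CCAAT, bound by NF-Y, was in 13 (35.1%), against 37.5% and 41.6%. The last 2 motifs were chosen after the first look at the windows, and no overlap between motifs was removed.

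RPKM values, read counts scaled by transcript length and by the mapped reads of the library, were compared as log2(RPKM + 1). Limma tested the difference, T120D mean minus wt, for the 10052 genes that averaged 1 RPKM or more, with calls at a Benjamini-Hochberg adjusted p under 0.05. Depth, estimated from the steps between low values, was 2510000 to 2730000 reads per line, and summed RPKM was similar in all lines, from 158613.7 to 160825.1. Of 10 fibroblast markers, 7 were called lower and 1 higher in T120D, where 5.45% and 7.65% of all tested genes were. Their summed levels were 2317.00 to 2682.41 RPKM in the T120D lines and 3074.60 in wt. Of the markers of other cell types, 1 of 5 epithelial, 3 of 5 leukocyte, 2 of 4 endothelial and 1 of 4 skeletal muscle genes could be analysed. Their summed levels in T120D and wt were at most 0.08 and 0.25 RPKM for epithelial, 1.95 and 1.80 for leukocyte, 0.47 and 0.00 for endothelial (Pecam1 at 0 in all 5 lines) and 0.52 and 0.68 for muscle markers. The part of the marker shift in the results below was not tested.

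Most proteasome genes were slightly higher in the T120D lines than in wt, and few passed the test. Of 43 tested members, 2 were called higher, Psmb6 and Psmd2, and 0 lower. That is 4.65% of the members, while 13.1% of all tested genes were called, 7.65% higher and 5.45% lower. At an unadjusted p under 0.05, limma had 15 members higher and 1 lower, where the shares over all tested genes were 15.2% and 13.4%. After quantile normalization these counts were 8 and 2, and without a trend 7 and 2. The median log2 difference of the members was 0.28, against -0.02 over all tested genes, and 29 of the 43 were positive (67.4%, against 48.3% of all). With only genes of at least 5 RPKM tested, the medians were 0.30 for the members and 0.04 for all tested genes. In 24 members (55.8%) wt was the lowest of the 5 lines, and in 5 (11.6%) the highest, where the shares over all tested genes were 31.1% and 32.3%. By line, the median of the members' differences from wt was 0.24, 0.26, 0.23 and 0.20 for lines 3, 6, 15 and 18, all measured against the same wt library. None of the tested members differed by as much as 1 on the log2 scale, and for 38 of the 43 the 95% confidence interval stayed inside -1 to 1. RPKM is a share of each library, so more of these transcripts per cell and less of other RNA cannot be told apart.

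**Figure D1:**
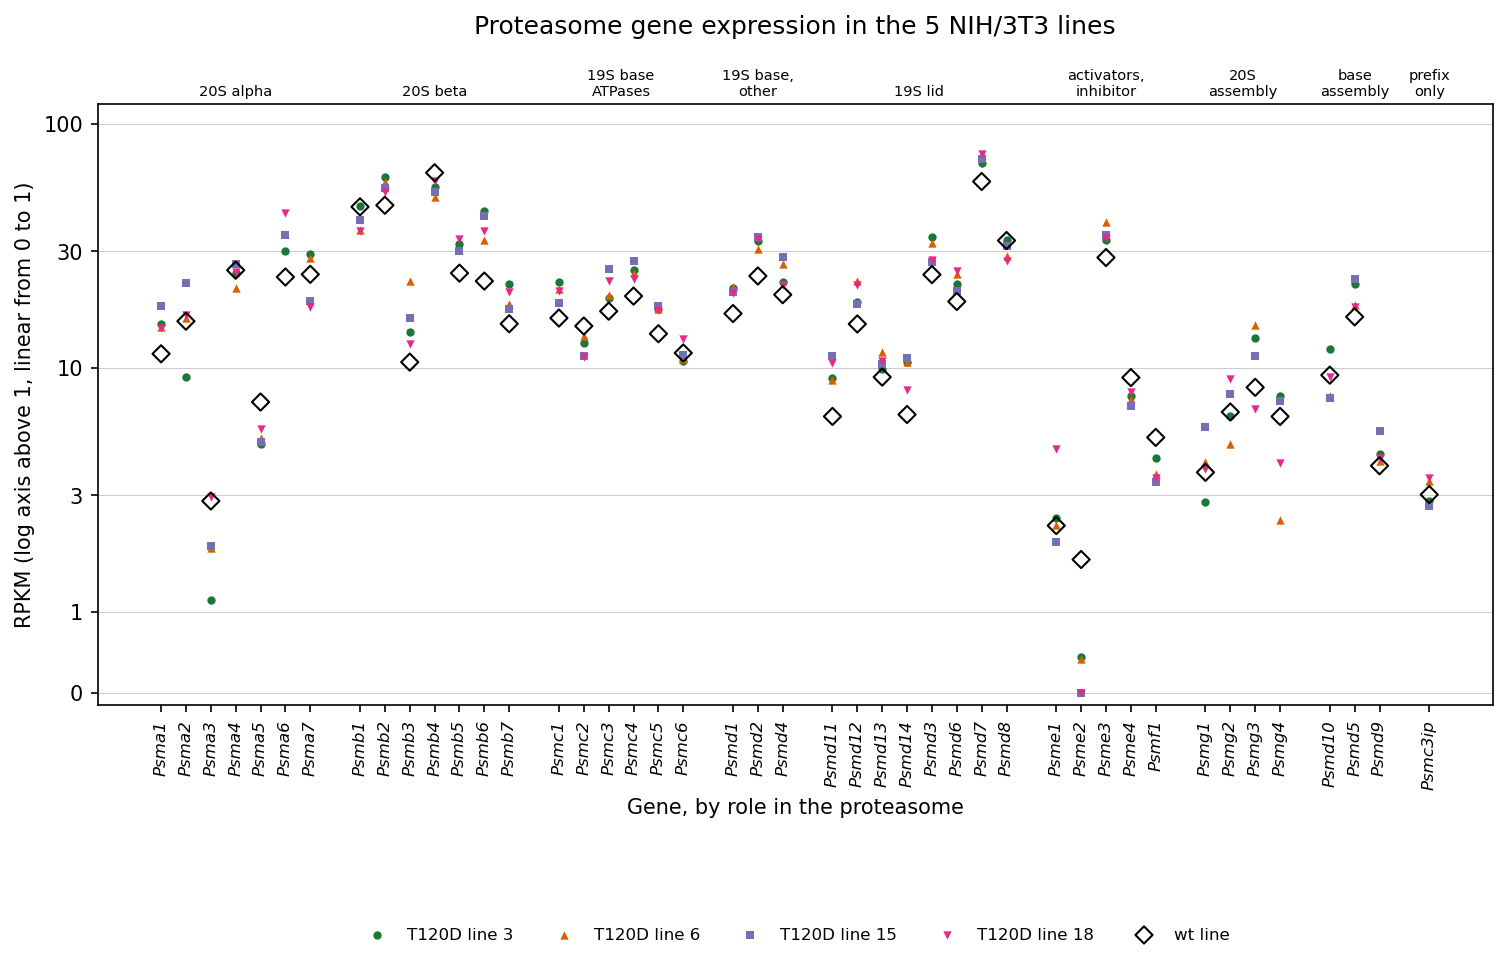
RPKM of the 44 members in the wt line (open diamonds) and in the 4 T120D lines (filled symbols), by role; the axis is logarithmic above 1 and linear from 0 to 1. In the cap groups the diamond lies under the filled symbols for 14 of 17 genes (31.1% over all tested genes), while the alpha subunits lie on both sides. All differences are from the same wt library.

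The beta subunits held the largest log2 difference among the 43 tested members. Psmb6, the subunit with the caspase-like site, was at 43.9, 33.5, 42.1 and 36.3 RPKM in T120D lines 3, 6, 15 and 18, and at 22.7 in wt. All 4 T120D lines were well above the wt line, by 1.72-fold on average (38.9 ± 4.87 RPKM, SD, n = 4). On the log2 scale this was 0.75 (SE 0.16, interval 0.39 to 1.10 at 95% confidence, limma adjusted p = 0.016). The wt value corresponds to about 49.3 reads on a transcript of 798 bases, and the T120D values to 72.1 to 89.0 reads. Psmb6 was no longer called when low genes were kept in (limma adjusted p = 0.0843) and without an intensity trend (0.0609).

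The other catalytic subunits had smaller differences in the same direction. Psmb5, which carries the chymotrypsin-like site, was at 32.2, 30.5, 30.2 and 33.6 RPKM in the T120D lines in the same order and at 24.4 in wt (log2 difference 0.36, SE 0.12, limma adjusted p = 0.0823). Psmb7, with the trypsin-like site, was at 22.0, 18.3, 17.45 and 20.4 RPKM against 15.1 (0.34, SE 0.15, limma adjusted p = 0.184). For these genes too the groups did not overlap, as was so for 31.1% of all tested genes with wt lowest, and neither passed the test. Summed over the 3 catalytic genes, T120D lines had 90.1 ± 6.5 RPKM (SD, n = 4), and wt had 62.2.

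The beta subunits without proteolytic activity were divided. Psmb3 was at 12.5 to 22.7 RPKM in the T120D lines and 10.5 in wt, and Psmb2 at 52.4 to 60.2 against 46.3, with log2 differences of 0.55 and 0.27. Psmb4 was at 50.2 to 58.0 RPKM against 63.0 in wt and Psmb1 at 36.3 to 46.2 against 45.7, with differences of -0.22 and -0.20. None of the 4 was called (limma adjusted p = 0.151 to 0.41). Their summed level was 166.3 ± 6.9 RPKM in T120D and 165.5 in wt, so the summed difference of the beta subunits lay in the catalytic genes. No test of that contrast between subunits was made.

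The alpha subunits had no common direction. Their median log2 difference was -0.05, with 2 of 7 positive, and 0 were called by limma, against 13.1% of all tested genes. At an unadjusted p under 0.05, 2 were higher and 1 lower, where the shares over all tested genes were 15.2% and 13.4%. Psma6 was at 30.1, 35.2, 35.04 and 43.0 RPKM in lines 3, 6, 15 and 18 and at 23.5 in wt. It lay above wt in every T120D line, by 0.58 on the log2 scale (SE 0.17, limma adjusted p = 0.0582), and it passed the threshold when only genes of at least 5 RPKM were tested (0.0468) and without line 3 (0.0394). Psma1 was also above wt in all 4 lines, at 14.5 to 18.0 RPKM against 11.4 (0.41, limma adjusted p = 0.119). In the opposite direction, Psma5 was at 4.87 to 5.61 RPKM against 7.23 in wt (-0.42, limma adjusted p = 0.156). Wt was the lowest line in 2 of the 7 alpha genes (28.6%) and the highest in 1 (14.3%). Over all tested genes these shares were 31.1% and 32.3%.

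The other alpha genes straddled the wt value, some with a wide spread between T120D lines. Psma7 was at 29.2 and 28.1 RPKM in lines 3 and 6, at 18.8 and 17.7 in lines 15 and 18, and at 24.1 in wt. Psma2 ran from 9.20 RPKM in line 3 to 22.2 in line 15, around 15.5 in wt. Psma4, at 21.2 to 26.7 RPKM against 25.1, was closest to wt apart from Psma2 (-0.05 and -0.02). Psma3 had the lowest level of the structural subunits with the prefix, 1.11 to 2.94 RPKM in T120D and 2.84 in wt. On a transcript of 2846 bases this is 8.0 to 22.0 reads. Psma3 has 3 annotated coding transcripts, and the part of the transcript length in its low level was not tested.

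The cap genes were the most uniform of the groups. Of 17 tested cap genes, 14 had the wt line below all 4 T120D lines (31.1% of all tested genes did), and the median log2 difference was 0.32, with single values from -0.28 to 0.57. By limma 1 was called higher and 0 lower (5.88% called, against 13.1% of all tested genes). At an unadjusted p under 0.05 the counts were 9 and 0, where the shares over all tested genes were 15.2% and 13.4%. The summed level of these 17 cap genes was 390.9, 399.2, 396.6 and 389.5 RPKM in T120D lines 3, 6, 15 and 18. In wt it was 324.1 RPKM. Adrm1 and Shfm1, outside the prefix, were not in the sums. Shfm1 alone was at 113.4 RPKM on average in T120D and 103.1 in wt. The 4 T120D sums were close to each other and all above wt (ratio of the mean to wt 1.22). The core summed to 378.6 ± 7.2 RPKM (SD, n = 4) against 337.5, a ratio of 1.12, and its median log2 difference was 0.13. That median was 0.22 without line 3, 0.27 with genes of at least 5 RPKM and 0.07 after quantile normalization. Whether cap and core differed from each other was not tested.

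**Figure D2:**
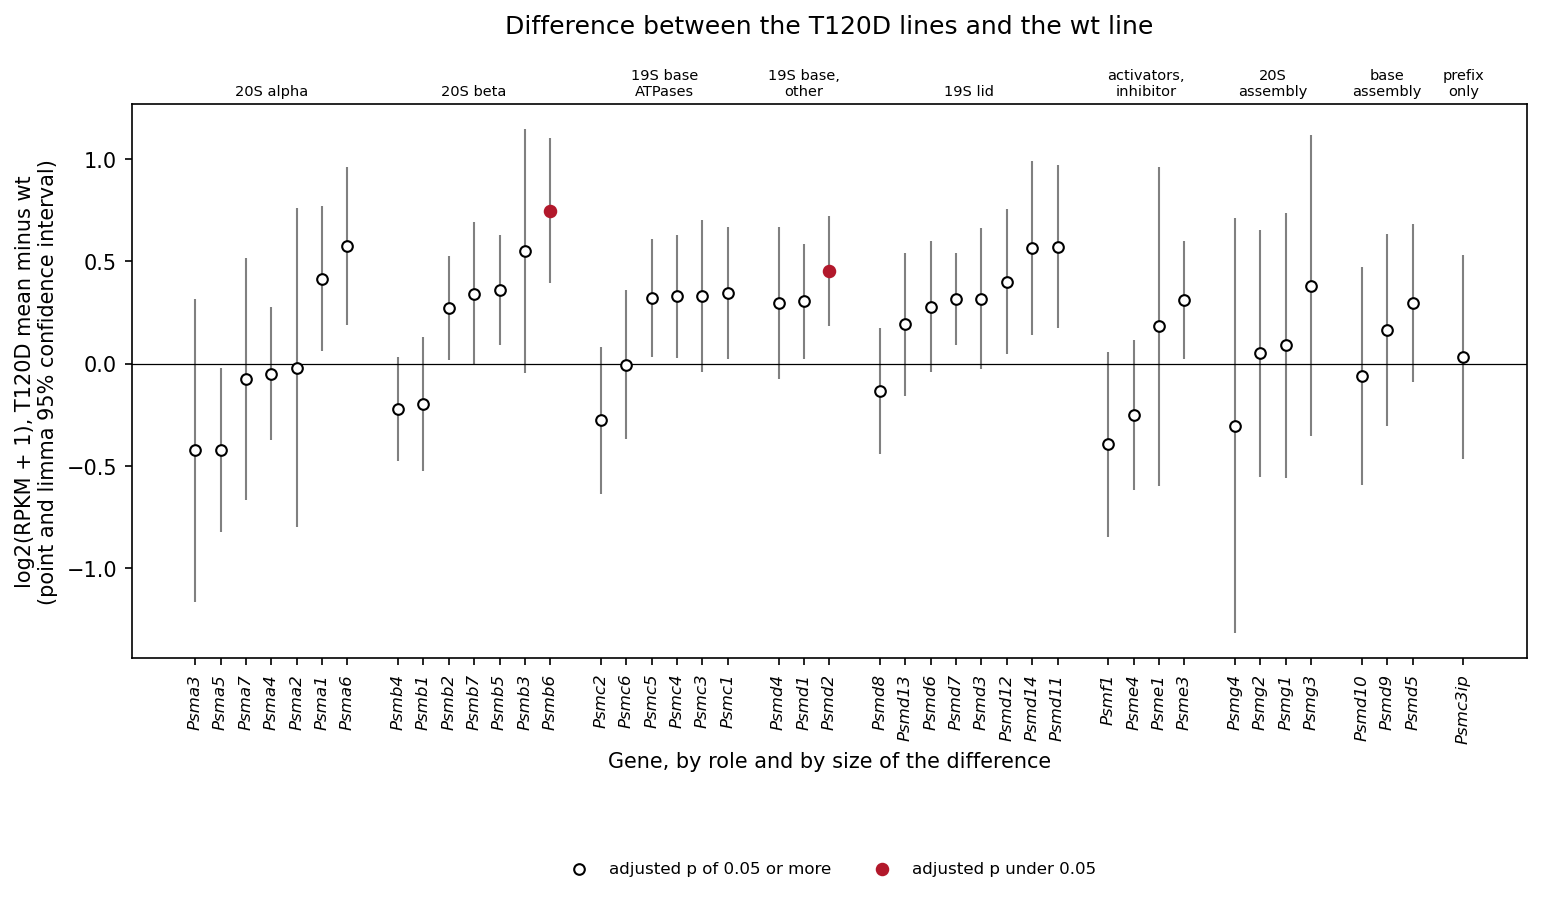
Log2 difference between the T120D mean and the wt line for the 43 tested members, with limma 95% confidence intervals, ordered by size within each role. Filled points passed an adjusted p under 0.05 and are Psmb6 at 0.75 and Psmd2 at 0.45.

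In the base, Psmd2 was called. Its product is a large scaffold subunit of the base that docks ubiquitin-binding shuttle proteins. It was at 33.02, 30.7, 34.45 and 33.7 RPKM in lines 3, 6, 15 and 18 and at 23.8 in wt, about 191.9 reads. The T120D values were close together and all above wt, by 1.39-fold, with a log2 difference of 0.45 (SE 0.12, 95% confidence interval 0.19 to 0.72, limma adjusted p = 0.0369). This call was lost under 6 of the 10 alternatives, with limma adjusted p of 0.0524 without the filter, 0.107 without a trend, 0.0568 after quantile normalization, and 0.076, 0.0758 and 0.0712 without line 3, 15 or 18. The transcript shares 26.4% of its 50-base stretches with annotated transcripts of other genes, mostly the pseudogene Gm5422.

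The other base genes had similar differences with no call. Psmd1, the partner scaffold, was at 20.2 to 21.4 RPKM against 16.7 (0.30, limma adjusted p = 0.145), and Psmd4, a ubiquitin receptor, at 21.8 to 28.5 against 19.9 (0.30, limma adjusted p = 0.277). Of the 6 ATPase genes, Psmc1, Psmc3, Psmc4 and Psmc5 lay above wt in every T120D line, with log2 differences of 0.32 to 0.35. Over all tested genes, wt was the lowest line in 31.1% and the highest in 32.3%. Psmc5 was nearly constant among the T120D lines, at 17.34, 17.35, 17.94 and 17.24 RPKM, against 13.8 in wt. Psmc2 was the exception, at 11.1 to 13.5 RPKM against 14.8 (-0.28), and Psmc6, at 10.6 to 13.1 against 11.5, differed by -0.01. The limma adjusted p of the ATPase genes was 0.135 or more.

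In the lid, 7 of 8 genes had the wt line below all T120D lines, as had 31.1% of all tested genes, and limma called 0 in either direction. At an unadjusted p under 0.05, 4 lid genes were higher and 0 lower, where the shares over all tested genes were 15.2% and 13.4%. Psmd11, which is needed for raised proteasome activity in stem cells, had the largest difference: 9.08, 8.90, 11.2 and 10.45 RPKM in lines 3, 6, 15 and 18 against 6.31 in wt (0.57, SE 0.18, limma adjusted p = 0.0656). Psmd14, the metalloprotease that cuts ubiquitin chains off the substrate, was at 10.5, 10.5, 10.97 and 8.13 RPKM against 6.425 (0.56, SE 0.19, limma adjusted p = 0.0834). Every T120D line was above wt for these genes. Without line 18, the lowest T120D line for Psmd14, that gene passed the threshold (limma adjusted p = 0.0419). Psmd7, the partner of Psmd14, had the highest level of these 8 lid genes, at 69.0 to 74.97 RPKM against 58.0 (0.32, SE 0.10, limma adjusted p = 0.0716). Psmd8 alone had wt inside the T120D range, at 27.35 to 33.45 RPKM against 33.2 (-0.13).

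**Figure D3:**
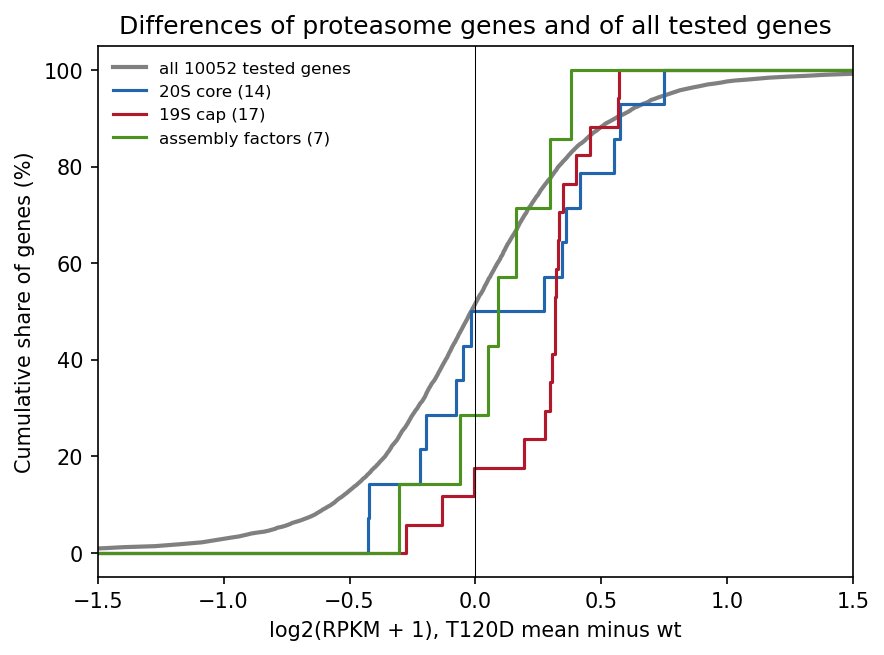
Cumulative share of genes by log2 difference between T120D and wt, for all tested genes (grey), the 20S core (14 genes), the 19S cap (17) and the assembly factors (7). The cap curve climbs steeply around its median of 0.32, while the curve of all genes crosses its middle near -0.02.

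The alternative activators and the inhibitor went both ways, with 0 of 4 tested genes called by limma, against 13.1% of all tested genes. At an unadjusted p under 0.05, 1 was higher and 0 lower, where the shares over all tested genes were 15.2% and 13.4%. Psme3, encoding the nuclear activator PA28 gamma, was at 33.4, 39.5, 34.9 and 34.1 RPKM in lines 3, 6, 15 and 18 and at 28.3 in wt (0.31, SE 0.13, limma adjusted p = 0.144). Psme4, encoding PA200, was on the other side, at 6.94 to 7.95 RPKM against 9.11 (-0.25, limma adjusted p = 0.35), and so was Psmf1, encoding the inhibitor PI31, at 3.39 to 4.24 against 5.18 (-0.40, limma adjusted p = 0.232). For these 3 genes the groups did not overlap, as was so for 31.1% of all tested genes with wt lowest and 32.3% with wt highest. Psme1 and Psme2 encode the interferon-induced activator PA28 and were barely expressed. Psme1 was at 1.92 to 4.66 RPKM against 2.25, and Psme2, at 0.441, 0.412, 0 and 0 RPKM in the T120D lines and 1.64 in wt, was the 1 member not tested. The wt value of Psme2 stands for about 4.3 reads, and 59.3% of its 50-base stretches occur in other genes, mainly Psme2b.

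None of the 7 assembly factors was called by limma, against 13.1% of all tested genes. In either direction 0 had an unadjusted p under 0.05, where the shares over all tested genes were 15.2% higher and 13.4% lower. Psmg3, of the chaperones that build the alpha ring, was at 13.2, 15.0, 11.2 and 6.79 RPKM in lines 3, 6, 15 and 18 against 8.305 in wt (0.38, SE 0.33), and Psmg4 at 7.65, 2.38, 7.27 and 4.08 against 6.31 (-0.30, SE 0.45). The spread between T120D lines in these genes exceeded the difference from wt. Psmg1 and Psmg2 differed by 0.09 and 0.05. Among the chaperones of the base, Psmd5 was at 17.7 to 23.0 RPKM against 16.2 (0.30, limma adjusted p = 0.298), Psmd9 at 4.13 to 5.51 against 3.96, and Psmd10, which encodes the oncoprotein gankyrin, at 7.48 to 11.95 against 9.32. Psmc3ip was at 2.705 to 3.515 RPKM against 3.02.

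Transcript levels per length were uneven among the subunits, which are present in equal numbers within the core and within a cap. Among the 31 structural subunits with the prefix, Psmd7 ranked first in every T120D line. In wt, Psmb4 ranked first at 63.0 RPKM, followed by Psmd7 at 58.0 and Psmb2 at 46.3. Adrm1 and Shfm1, which lie outside the prefix, were not ranked. Shfm1 was above all of these genes, at 94 to 134.5 RPKM in T120D and 103.1 in wt. Psmb6 moved from rank 12 in wt to rank 5, 6, 4 and 5 in lines 3, 6, 15 and 18. Psma3 ranked last in all 5 lines. Psmd11, Psmd14 and Psma5 held ranks between 26 and 30.

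The T120D lines differed from each other in the members about as much as in other genes. The median SD of log2(RPKM + 1) among the 4 lines was 0.13 for the 37 members of at least 5 RPKM and 0.14 for all 6232 tested genes of that level. Of the 43 tested members, 9 had an SD over 0.3, and 5 of these had a mean under 10 RPKM. The other 4 were Psma2, Psma7, Psmb3 and Psmg3. For members with 1 annotated coding transcript, the wt values stood for 10.6 to 249.9 reads (median 59.4), so the depth limits what single genes can show. Many proteasome genes have processed pseudogenes. Of the 44 members, 20 shared at least 1% of their 50-base stretches with other annotated transcripts, most of all Psme2, Psmb5 (57.1%), Psmb3 (55.8%) and Psma5 (55.4%), and 12 had exon bases overlapped by another gene. Stretches were matched on either strand. Part of the sharing is therefore with genes that overlap on the opposite strand and not with pseudogenes, such as Nek6 for Psmb7 and Mlx for Psmc3ip. How the authors assigned such reads is not given, so these values are uncertain. The 24 members sharing under 1% had a median log2 difference of 0.22, with 13 of 24 having wt below all T120D lines and 0 called. The 19 tested others had a median of 0.33, with wt below in 11 of 19, and held both called members, Psmb6 (2.7% shared) and Psmd2. Over all tested genes, wt was below in 31.1%. The members lie on 16 chromosomes, 9 of them on chromosome 11, where their median was 0.32 against -0.0003 for the 787 tested genes of that chromosome.

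Proteasome proteins named outside the prefix were called more often than the members. Of 11 listed genes 10 were tested, and 5 were called higher and 0 lower by limma, a share of 50% against 13.1% over all tested genes. The difference from the members was not tested. Adrm1, a ubiquitin receptor of the cap, was at 6.365, 5.94, 5.52 and 6.64 RPKM in lines 3, 6, 15 and 18 and at 2.82 in wt (0.89, SE 0.18, limma adjusted p = 0.0148). Uchl5, the deubiquitinase that Adrm1 recruits, was at 4.59 to 5.75 RPKM against 2.77 (0.73, limma adjusted p = 0.0407). Values of the T120D lines were about 2.17-fold and 1.91-fold those of wt. Usp14, the other cap-bound deubiquitinase, was at 13.5 to 15.1 RPKM against 9.64 (0.53, limma adjusted p = 0.039), and Txnl1, a cap-bound thioredoxin, at 19.5 to 22.6 against 13.2 (0.66, limma adjusted p = 0.0145). Pomp, the chaperone of the beta ring, was at 31.8, 40.2, 31.7 and 34.1 RPKM against 22.5 (0.59, limma adjusted p = 0.0325). The count of 5 fell to 3 without the filter, without a trend and without line 3 or 15, and to 2 without line 18. Adrm1 and Txnl1 kept their calls under all 10 alternatives, and Pomp, Uchl5 and Usp14 each lost theirs under 4 (limma adjusted p = 0.054 to 0.107). Uchl5, with a mean under 5 RPKM, was not tested under the stricter filter.

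**Figure D4:**
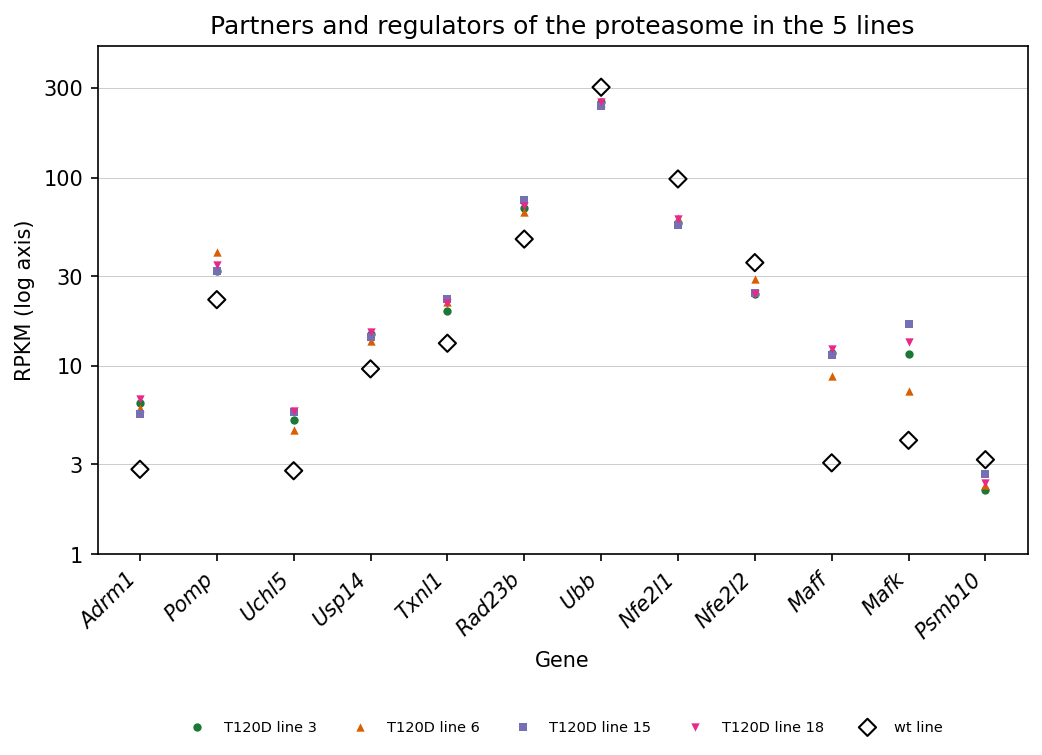
RPKM on a log axis of partners and regulators of the proteasome in the wt line (open diamonds) and the 4 T120D lines (filled symbols). Adrm1, Pomp, Uchl5, Usp14, Txnl1, Rad23b, Maff and Mafk lie above wt in every T120D line, and Ubb, Nfe2l1, Nfe2l2 and Psmb10 below it. Apart from Nfe2l2 and Psmb10, the genes shown are those of the lists that limma called. Their separation from wt therefore follows in part from that choice, and uncalled genes of the lists are not drawn. Over all tested genes, wt was the lowest line in 31.1% and the highest in 32.3%.

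Upstream of the proteasome, Rad23b, encoding a shuttle protein that carries ubiquitinated substrates, was at 68.9, 65.7, 76.5 and 70.7 RPKM in lines 3, 6, 15 and 18 and at 47.2 in wt (0.57, SE 0.11, limma adjusted p = 0.0121; 0.071 without a trend). It was the 1 called gene of 9 shuttle factors and VCP complex genes (11.1%, against 13.1% of all tested genes), whose median was 0.23. Of 6 ubiquitin and E1 genes, 1 was called lower and 0 higher (16.7% called, against 13.1% of all tested genes). This was the polyubiquitin gene Ubb, at 240.9 to 252.5 RPKM against 301.9 (-0.28, limma adjusted p = 0.0485), and its call was lost under median scaling (0.0673) and under 5 of the other alternatives. Of the immunoproteasome subunits, Psmb8 and Psmb9 were near 0, at most 0.302 and 0.471 RPKM in any line. Psmb10 was at 2.18 to 2.66 RPKM in T120D against 3.18 in wt (limma adjusted p = 0.406).

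The transcription factors that act on proteasome genes were called in both directions. In a list of 7 such genes and genes that process NRF1, limma called 2 higher and 1 lower (42.9%, against 13.1% of all tested genes). Nfe2l1 was lower in T120D, at 57.6, 61.1, 55.8 and 60.04 RPKM in lines 3, 6, 15 and 18 against 98.4 in wt (-0.74, SE 0.10, limma adjusted p = 0.00232), while most proteasome genes were on the higher side. Nfe2l2, which encodes NRF2, was at 24.0, 29.0, 24.5 and 24.0 RPKM against 35.4 (-0.47, limma adjusted p = 0.0596). It passed the threshold without line 6, its highest T120D line (limma adjusted p = 0.0226), with genes of at least 5 RPKM (0.0479) and after quantile normalization (0.0364). Of the small MAF genes, Maff and Mafk were called higher. Maff was at 8.82 to 12.2 RPKM against 3.06 (1.56, SE 0.20, limma adjusted p = 0.00143) and Mafk at 7.32 to 16.8 against 4.02 (1.35, SE 0.33, limma adjusted p = 0.0295), while Mafg was at 18.5 to 23.2 against 19.1 (0.13, limma adjusted p = 0.623). The Mafk call was lost without the filter (limma adjusted p = 0.157), without a trend (0.0734) and without line 3 (0.0578) or 18 (0.0627). NRF1 is controlled mainly after translation, and its protein was not measured here. Ngly1, Ddi2 and Syvn1, whose products process or degrade NRF1, were not called (limma adjusted p = 0.447 to 0.998).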

How the data were processed

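RNA was sequenced from 5 lines, and the authors deposited 1 table of RPKM values per line. Per the submitters' processing notes, Partek and build mm9 were used; aligner, annotation and strand handling were not given in the sources used here. Values were analysed as log2(RPKM + 1) with limma 3.58.1 in R 4.3.3 (moderated two-sided test with a trend on intensity, genes averaging 1 RPKM or more, all 5 lines in 1 fit, 95% confidence intervals). Only the T120D lines are replicated, so they alone gave the spread, with 3 residual degrees of freedom plus 5.99 prior ones, on the assumption that wt varies as they do. P-values were adjusted over all tested genes. The members and lists were chosen with earlier results of these data known.

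The genes named were the called members, the extremes of level and difference in each role group, the catalytic, ubiquitin-binding and activator genes, and called genes of the lists; other members named beside them were chosen after their values were seen. Depth was the number of reads at which values of single-transcript genes fell on whole reads, with 42.9% to 54.5% of values within 0.05 of a whole number where chance gives 10%; counts were therefore not recovered. Transcripts and chromosomes came from GENCODE M21 and promoters from RefSeq, both on GRCm38, another build than the files', and no coordinates were carried between builds. The fit was tested on simulated data. Alternatives changed the pseudocount, the filter, the trend, the scaling or left out 1 T120D line.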

Additional observations from a re-analysis of the deposited data

Results flagged for a closer look

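Among the 4 T120D lines, 1 line stood apart from the other 3 by Dixon's ratio on log2 values (0.843, 0.859 and 0.889 in the order below) for 3 genes. They were Psmc5 in line 15, at 17.94 RPKM within a range of only 0.05 on the log2 scale, Psmd14 in line 18, at 8.128 RPKM, and Nfe2l2 in line 6, at 29.01 RPKM. With 55 genes examined, chance flags about 1 in 20.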

How the results depend on the processing

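The counts depended on the test's settings. Of all tested genes, 769 were called higher and 548 lower by limma; 434 were higher and 514 lower when low genes were kept in (45.8% of calls higher, against 58.4%), 455 higher and 361 lower without a trend, and 560 to 796 higher and 395 to 586 lower when 1 T120D line was left out. Of the members, 0 were called without the filter (14 higher and 2 lower at an unadjusted p under 0.05) and 0 without a trend (7 and 2), 1 after quantile normalization, and 1 to 2 with 1 line left out. Of the proteins outside the prefix, 3 were called without the filter, 3 without a trend, and 2 to 5 with 1 line left out. The median log2 difference of the members was 0.30 with genes of at least 5 RPKM, 0.23 after quantile normalization and 0.25 to 0.30 with 1 line left out. That of the core was 0.27 at 5 RPKM and 0.13 to 0.22 with 1 line left out. After quantile normalization the cap was at 0.26, the whole base at 0.27 and the alpha subunits at -0.10. The activators and inhibitor were at -0.25 without the filter, 0.031 at 5 RPKM and -0.15 to 0.038 with 1 line left out (0.038 without line 15), so their sign was not settled; the cause was not tested. Single genes near 0 also turned sign: Psmc6 to 0.015 under median scaling, and with 1 line left out Psmc6 ranged from -0.067 to 0.026, Psmc3ip from -0.014 to 0.081, Psmd10 from -0.19 to 0.014, Psme1 from -0.024 to 0.29 and Psmg1 from -0.051 to 0.22. No paired analysis was possible because there is 1 wt library, and its label carries no number. The spread of the 1 wt library could not be measured, and low depth limits what single genes can show.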
